A study of Mus musculus with 3 samples.

Results

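The genes described here carry out MHC class I antigen presentation, and they include the subunits of the immunoproteasome. They were chosen as a list of 10 named genes, H2-K1, H2-D1, B2m, Tap1, Tap2, Tapbp, Psmb8, Psmb9, Psmb10 and Nlrc5, out of 45616 features on the array, of which 22908 had a gene symbol. The 10 genes were read by 15 probes. Hepa1c1c7 is a mouse hepatoma cell line. It was analysed on 3 single-colour Agilent mouse expression arrays after transfection with 2 µg of vector and 24 h of culture, to ask how overexpression of Mst1r or Slpi changes gene expression. The empty vector group received the expression vector without an insert, the Mst1r vector group received the vector for Mst1r, a receptor tyrosine kinase, and the Slpi vector group received the vector for Slpi, a secreted protease inhibitor. Each group was 1 array labelled from 100 ng of RNA, so the groups could not be tested against each other and none of the differences has a replicate check.

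MHC class I molecules display short peptides from inside the cell to cytotoxic T cells. The peptides are cut by the proteasome, pumped into the endoplasmic reticulum by the TAP transporter and loaded onto a heavy chain paired with beta-2 microglobulin. In cells exposed to interferon, the catalytic subunits of the standard proteasome are exchanged for those of the immunoproteasome, and many genes of the pathway are transcribed together under Nlrc5 and interferon regulatory factors. Hepatocytes are known to have low class I levels at rest and to raise them during viral infection.

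Promoter windows of both classical heavy chains, the light chain and a transporter subunit are shown first, as the places where such regulators act. RefSeq windows from 250 bases before to 50 bases after the start of the gene (GRCm38.p6) matched 8 of the 10 genes, and Tap2 and Nlrc5 had no entry. The windows of H2-K1, H2-D1, B2m and Tap1 read 5′ to 3′ on the strand of the gene as follows, and capitals mark every match to the 6 motifs searched on both strands.

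H2-K1 (chr17:34000284-34000583, minus strand): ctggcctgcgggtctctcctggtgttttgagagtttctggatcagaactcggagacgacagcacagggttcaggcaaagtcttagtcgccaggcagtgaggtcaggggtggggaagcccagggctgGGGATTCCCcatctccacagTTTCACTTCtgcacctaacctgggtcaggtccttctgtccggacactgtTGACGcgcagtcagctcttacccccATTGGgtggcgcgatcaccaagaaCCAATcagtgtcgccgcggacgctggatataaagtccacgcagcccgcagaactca

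H2-D1 (chr17:35262844-35263143, plus strand): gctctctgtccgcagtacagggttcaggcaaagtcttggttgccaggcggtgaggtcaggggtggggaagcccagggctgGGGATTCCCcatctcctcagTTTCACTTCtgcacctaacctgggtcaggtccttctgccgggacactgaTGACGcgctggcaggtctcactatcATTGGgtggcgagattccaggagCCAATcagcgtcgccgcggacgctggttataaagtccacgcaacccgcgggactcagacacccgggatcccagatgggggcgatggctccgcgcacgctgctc

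B2m (chr2:122147437-122147736, plus strand): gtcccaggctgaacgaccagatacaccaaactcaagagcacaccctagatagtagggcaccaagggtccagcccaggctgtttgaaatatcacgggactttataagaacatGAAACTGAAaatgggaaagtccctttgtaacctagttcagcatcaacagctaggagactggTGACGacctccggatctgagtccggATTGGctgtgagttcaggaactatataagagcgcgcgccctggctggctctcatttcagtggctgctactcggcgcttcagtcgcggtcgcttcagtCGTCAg

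Tap1 (chr17:34187306-34187605, plus strand): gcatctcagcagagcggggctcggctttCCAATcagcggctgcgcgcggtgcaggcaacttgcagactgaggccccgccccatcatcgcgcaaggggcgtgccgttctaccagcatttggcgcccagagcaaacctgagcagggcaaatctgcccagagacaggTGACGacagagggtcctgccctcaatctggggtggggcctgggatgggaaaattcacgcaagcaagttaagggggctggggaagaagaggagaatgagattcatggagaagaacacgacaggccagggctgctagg

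The motifs were the interferon response core GAAANNGAA, a variant of the interferon regulatory factor site GAANTGAAA, the STAT site TTCNNNGAA, the NF-kB palindrome GGGATTCCC, the Y box CCAAT and the core of the X2 box TGACG, where N is any base. The windows of the heavy chains H2-K1 and H2-D1 held the same set, with the NF-kB palindrome, the interferon regulatory factor variant, the X2 box core and 2 Y boxes each. The palindrome was found in 0.353% of all 32851 windows of the table and the variant in 1.83%. The stretch from the palindrome to the variant is near-identical in H2-K1 and H2-D1, so these windows are not separate cases. B2m held the interferon response core, which 8.56% of all windows held, together with 1 Y box and 2 X2 box cores. Tap1 held a Y box and an X2 box core, which were found in 37.4% and 20.8% of all windows. Over the 8 genes with a window, a Y box was found for 6, an X2 box core for 5 and the STAT site for 1, Psmb8, beside 8.3% of all windows. Tap1 and Psmb9 are transcribed in opposite directions from a common promoter. Their windows shared 275 bases (chr17:34187306-34187580). These matches describe the letters of the windows and do not show binding.

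On each array, 46.7% to 48.5% of the 56605 non-control probes were marked well above background in the deposited flags (the others are called at background below), no spot was saturated, and the 75th percentile of the processed signal lay between 229 and 268. Log2 values below are relative to that percentile of the same array. Each log2 difference is followed by its spot error, the SD expected from repeated spots of 1 array at that signal level. It covers no variation between cultures. Control spots without a target exceeded a signal of 50 in 2.68% to 4.01% of cases in the upper rows of an array (of the rows named below, those up to 117) and in at most 2 of 1731 cases in the lower rows, so the row of each probe of the 10 genes is given. The Mst1r probe was at background on all 3 arrays. After scaling, the brighter Slpi probe was 1.09-fold empty vector with the Slpi vector, and differed by -0.52 ± 0.13 with the Mst1r vector. The second Slpi probe differed by -0.23 ± 0.27 with the Slpi vector and 0.02 ± 0.27 with the Mst1r vector. The group names mean the arrays labelled so, and the real-time PCR of Mst1r in the study was not analysed here. The place of these probes relative to the coding sequences was not known here. Of 8 hepatocyte markers, Alb, Afp, Krt8, Krt18 and Trf were well above background on all arrays, and Hnf4a, a regulator of hepatocyte genes, was at background on all 3. The others were above background on some arrays only and under a signal of 50. Ttr gave 9.6 (empty vector), 26.4 (Mst1r vector) and 22.9 (Slpi vector), and Apoa1 gave 4.83, 9.64 and 43.1. The summed signal of the 7 leukocyte markers was 3022 (empty vector), 3009 (Mst1r vector) and 2994 (Slpi vector), unscaled. Their defining members Ptprc and Adgre1 were at background on all arrays, whereas Itgam, Cd3e (row 15) and Cd68 were well above it on all at their brighter probe. After scaling, these 3 probes differed from empty vector with the Mst1r vector by 0.34 ± 0.12, 0.23 ± 0.14 and -0.26 ± 0.14. The second probes were dimmer, that of Itgam at background with empty vector. They gave 0.55 ± 0.84, -0.16 ± 0.62 and -0.36 ± 0.27, so Itgam and Cd3e could not be judged from them. Of 8 endothelial and stromal markers, Cdh5, Kdr, Tie1 and Lum were at background on all arrays, and Col1a1, Pdgfra and Pecam1 were well above it on all. The summed signals were 6672, 6801 and 5862, nearly all of it Col1a1 (6508, 6677 and 5718), which differed by 0.27 ± 0.13 with the Mst1r vector. The other Col1a1 probe gave 0.25. Each Col1a1 probe was printed on 10 spots and averaged, so this error of a single spot is too large for them. The part of these markers in the results below was not tested.

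With the Mst1r vector, 2 of the 10 genes were at least 1.5-fold higher than with empty vector, Nlrc5 and Tap1, and none was at least 1.5-fold lower. Over all 18010 features with a signal over 50 on the brighter array, the share at least 1.5-fold higher was 7.06% and the share as much lower was 5.19%. In the lower rows, where both probes lie, 4.67% of the features were at least 1.5-fold higher. The median log2 difference of the 10 genes was 0.05, beside -0.04 for all features. Of the 10 genes, 6 lay above 0 and 4 below, and 42.3% of all features lay above 0. A count of 2 genes is too small to set the list apart from this background. Both genes were beyond 2 spot errors, as were 19.8% of all features, and the other 8 lay within 2 spot errors of 0, between -0.11 and 0.08.

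**Figure D1:**
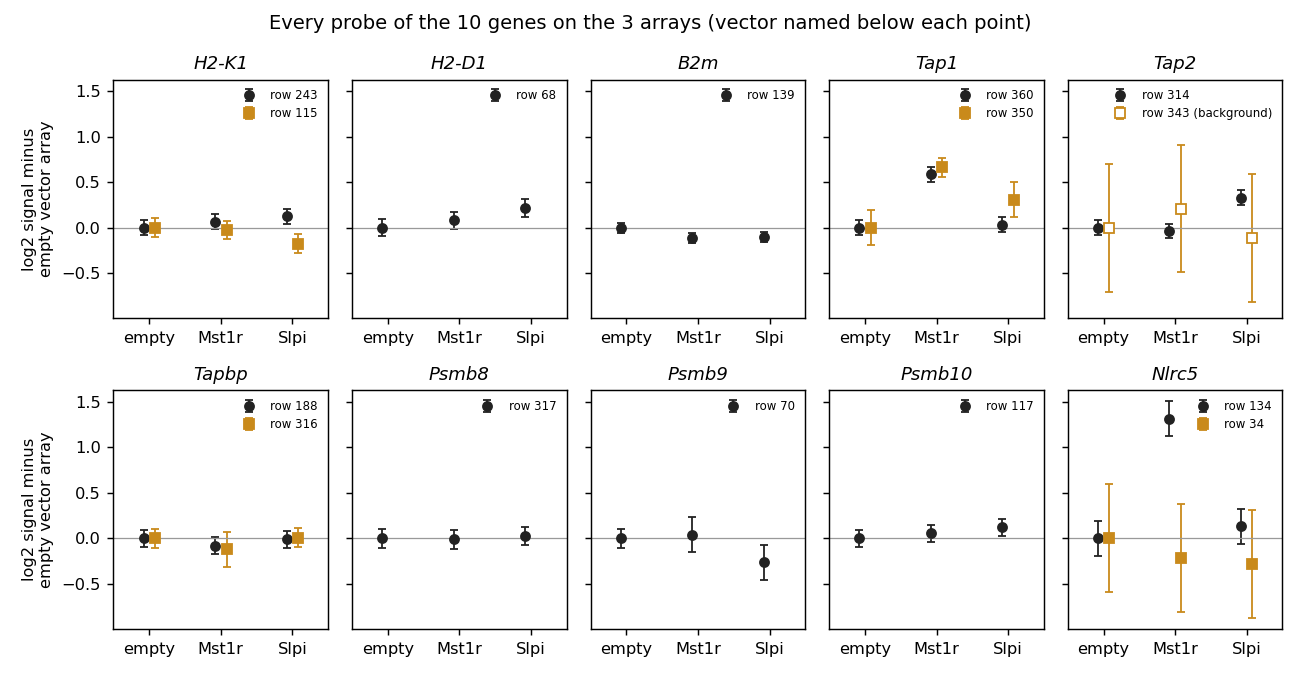
Log2 signal of each of the 15 probes relative to its own value on the empty vector array, for the arrays of empty vector, Mst1r vector and Slpi vector. Black circles are the brighter probe of a gene, orange squares the second probe, the open squares a probe not well above background, and bars the SD between repeated spots of 1 array at that signal. Both Tap1 probes were highest with the Mst1r vector, and the Nlrc5 probes gave 1.31 and -0.22, the second with an SD that spans 0 on every array.

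Nlrc5, the transactivator of class I genes (NM_001033207), had a processed signal of 89.1 (empty vector), 189 (Mst1r vector) and 92.5 (Slpi vector) at the probe in row 134. The Mst1r vector array was the high one, and the others differed by less than the spot error. The difference from empty vector was 1.31 ± 0.27 on the log2 scale, or 2.49-fold, and 3.5% of all features were at least as high. The second Nlrc5 probe, in row 34, gave 28.6, 21 and 22.3 in the same order, below the signal minimum of 50 on every array. Its difference was -0.22 ± 0.84, an error too large to tell whether it moved with the first probe. The higher level rests on 1 probe, and the mean of both probes gave 0.55.

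Tap1 and Tap2 are the subunits of the transporter that carries peptides into the endoplasmic reticulum. The brighter Tap1 probe (NM_013683, row 360) gave 1084 (empty vector), 1389 (Mst1r vector) and 1051 (Slpi vector). The second probe (row 350) gave 204, 275 and 239. The Mst1r vector array was the highest for both probes. The differences from empty vector were 0.59 ± 0.12 and 0.66 ± 0.22, or 1.5-fold and 1.58-fold, so that the brighter probe lay just inside the threshold. It lay under it at 0.48 when scaled to the spike-in controls, 0.36 without scaling and 0.55 after another background correction (normexp). At least as high a difference was found for 7.03% of all features. Tap2 (NM_011530, row 314) gave 1344, 1117 and 1597 in the same order, and differed from empty vector by -0.04 ± 0.12 with the Mst1r vector. Its second probe was at background on all arrays, with signals of 3.38 to 3.85. The partner subunits of the transporter thus had unlike values on the Mst1r vector array.

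H2-K1 and H2-D1 are the classical heavy chains, which hold the peptide, and B2m is the light chain bound to them. The brighter H2-K1 probe (NM_001001892, row 243) gave 2968 (empty vector), 2646 (Mst1r vector) and 3066 (Slpi vector). H2-D1 (NM_010380, row 68) gave 11162, 10067 and 12286. After scaling, the differences from empty vector with the Mst1r vector were 0.06 ± 0.12 and 0.08 ± 0.13. The second H2-K1 probe (row 115) gave 882, 738 and 740, a difference of -0.03 ± 0.14 with the Mst1r vector. The class I heavy chains are related in sequence, and the sequences of the probes were not known here. Signal at a probe of one may come in part from another. B2m (NM_009735, row 139) gave 36978, 29212 and 32676, and its log2 difference of -0.11 ± 0.08 was the lowest of the 10 genes with the Mst1r vector. Tapbp, or tapasin, holds the empty heavy chain next to the transporter. Its brighter probe (NM_001025313, row 188) gave 8001, 6446 and 7528, and its second probe (NM_009318, row 316) gave 276, 216 and 263. The Tapbp differences with the Mst1r vector were -0.08 ± 0.13 and -0.12 ± 0.22. None of these differences exceeded 2 spot errors.

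**Figure D2:**
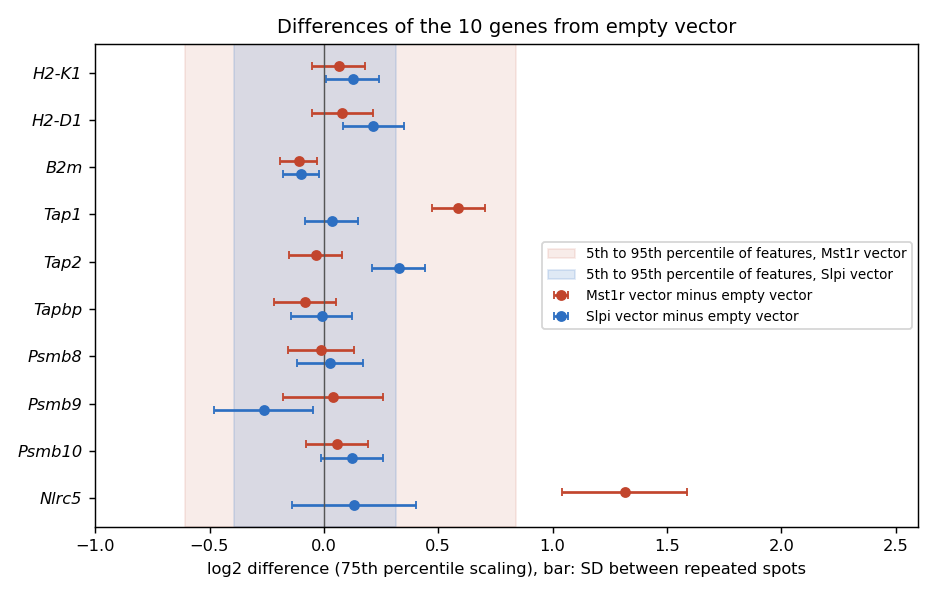
Log2 difference from empty vector (x axis) of the brighter probe of each of the 10 genes, in red for the Mst1r vector and blue for the Slpi vector, with the SD that repeated spots give. Shading spans the 5th to the 95th percentile of all features; with the Mst1r vector Nlrc5 at 1.31 lay above that range and the other 9 genes within it, and with the Slpi vector Tap2 at 0.33 lay just above it.

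The immunoproteasome subunits Psmb8, Psmb9 and Psmb10 replace Psmb5, Psmb6 and Psmb7 of the standard proteasome. Psmb8 (NM_010724, row 317) gave 416 (empty vector), 352 (Mst1r vector) and 402 (Slpi vector). Psmb9 (NM_013585, row 70) gave 287, 252 and 227. Psmb10 (NM_013640, row 117) gave 11832, 10496 and 12202. After scaling, their differences with the Mst1r vector were -0.01 ± 0.14, 0.04 ± 0.22 and 0.06 ± 0.13. The standard subunits gave -0.09 ± 0.13 for Psmb5, 0.05 ± 0.08 for Psmb6 and -0.01 ± 0.13 for Psmb7. The difference of an immunosubunit minus that of its counterpart was 0.08 ± 0.20 for Psmb8, -0.01 ± 0.23 for Psmb9 and 0.07 ± 0.19 for Psmb10, within the spot error for each pair. Psmb9, which shares its promoter window with Tap1, therefore differed from empty vector by 0.04 on the array where Tap1 differed by 0.59.

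With the Slpi vector, none of the 10 genes was at least 1.5-fold higher or lower than with empty vector. Over all 17812 features with a signal over 50 on the brighter array, the share at least 1.5-fold higher was 3.37% and the share as much lower was 3.87%. The median log2 difference of the 10 genes was 0.08, beside 0.00 for all features. Tap2 was the only gene beyond 2 spot errors, at 0.33 ± 0.12 or 1.25-fold, whereas 8.45% of all features were beyond 2 spot errors. H2-D1 differed by 0.22 ± 0.13, H2-K1 by 0.13 ± 0.12, Nlrc5 by 0.13 ± 0.27 and Psmb10 by 0.12 ± 0.13. The second H2-K1 probe gave -0.17 ± 0.14, opposite in sign to the first. Tap1 differed by 0.03 ± 0.12 at the brighter probe and 0.31 ± 0.27 at the second. Psmb9 was the lowest, at -0.26 ± 0.22, and the difference from its counterpart Psmb6 was -0.42 ± 0.23. Tapbp at -0.01 ± 0.13, Psmb8 at 0.03 ± 0.14 and B2m at -0.10 ± 0.08 completed the list. The spike-in controls added at labelling were 0.24 higher after scaling on the Slpi vector array and 0.11 higher on the Mst1r vector array, which is as large as most of these differences.

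Both comparisons above share the empty vector array. The vector arrays were therefore also set against each other. Of the 10 genes, 1 was at least 1.5-fold higher with the Mst1r vector than with the Slpi vector, and none was at least 1.5-fold lower, beside 7.13% and 4.5% of 17682 features. The gene was Nlrc5, at 1.18 ± 0.27 or 2.27-fold. Tap1 differed by 0.55 ± 0.12 at the brighter probe, or 1.47-fold, and by 0.35 ± 0.22 at the second. Tap2 differed by -0.36 ± 0.12. The subunits of the transporter thus differed in opposite directions between the vector arrays, each beyond 2 spot errors at its brighter probe. With Nlrc5, 3 of the 10 genes were beyond 2 spot errors, beside 21.3% of all features. Psmb9 differed by 0.30 ± 0.27, and the median of the 10 genes was -0.05, beside -0.03 for all features.

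**Figure D3:**
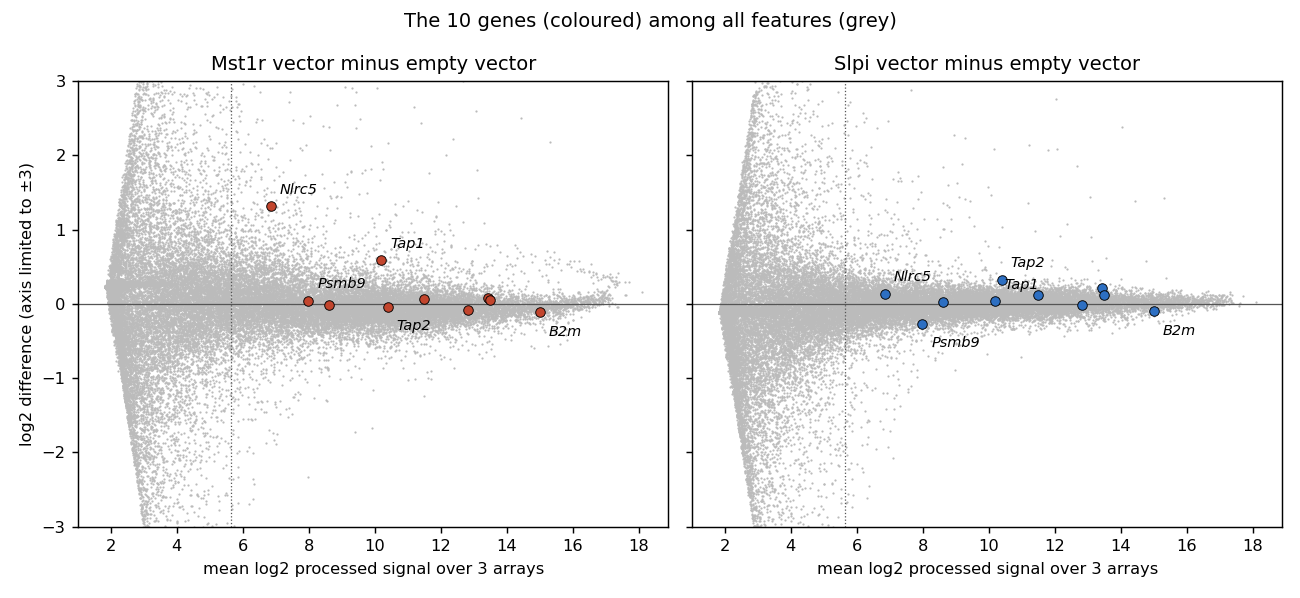
Log2 difference from empty vector (y axis, limited to 3 in each direction) against the mean log2 processed signal over the 3 arrays (x axis) for all features in grey and the 10 genes in colour, with the Mst1r vector on the left and the Slpi vector on the right. The dotted line marks a signal of 50; Nlrc5 was the dimmest of the 10 probes and lay where the features spread more than at higher signals.

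The other genes of the pathway were taken from fixed lists and read in the same way. Of 18 other class I and class I-like heavy chains with a probe, 17 were well above background on all arrays. With the Mst1r vector their median was 0.03. None of these was at least 1.5-fold higher and 1 was at least 1.5-fold lower, beside 7.06% and 5.19% of all features. That gene was Cd1d1, which presents lipids, with signals of 237 (empty vector), 108 (Mst1r vector) and 217 (Slpi vector) (-0.90 ± 0.27, row 51). Hfe, a class I-like protein of iron metabolism, gave 1197, 722 and 1019 (-0.50 ± 0.13). H2-Bl gave 407, 267 and 438 (-0.38 ± 0.14). With the Slpi vector the median of the 17 was 0.13, with 11 above 0, beside 50.3% of all features. The highest was H2-Q1 at 932, 747 and 1249 (0.50 ± 0.13). With the Mst1r vector these 3 of the 17 were more than 2 spot errors below 0 and none was as far above 0, beside 19.8% of all features beyond 2 spot errors in either direction.

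The 10 chaperones and peptide-trimming enzymes were all well above background, and none passed 1.5-fold with either vector. Hspa5, the general chaperone of the endoplasmic reticulum, gave 21470 (empty vector), 24924 (Mst1r vector) and 20426 (Slpi vector). Its 3 probes differed by 0.45 to 0.53 with the Mst1r vector. The chaperones of the loading complex lay closer to 0, with -0.12 ± 0.13 for calreticulin (Calr), 0.00 ± 0.08 for calnexin (Canx) and 0.05 ± 0.13 for Pdia3, and the trimming peptidase Erap1 gave -0.23 ± 0.27. The 14 standard subunits of the proteasome core ranged from -0.17 to 0.09 with the Mst1r vector and from -0.26 (Psmb2) to 0.15 with the Slpi vector. The 17 subunits of the regulatory particle ranged from -0.15 to 0.18 and from -0.27 (Psmd1) to 0.14, and the other Psmd1 probes gave -0.06 and 0.00 with the Slpi vector. The 8 activators and assembly factors ranged from -0.15 to 0.00 and from -0.13 to 0.10, with the activator subunit Psme1 at 0.00 ± 0.13 with the Mst1r vector. No proteasome gene passed 1.5-fold with either vector. Of all features, 7.06% were as much higher and 5.19% as much lower with the Mst1r vector. With the Slpi vector these shares were 3.37% and 3.87%.

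With the Mst1r vector, 2 of the 14 transcription regulators of class I genes that were well above background on all arrays were at least 1.5-fold higher and none was at least 1.5-fold lower, beside 7.06% and 5.19% of all features. The median was 0.11, with 11 above 0, beside 42.3% of all features. Of the 14, 4 were above 0 by more than 2 spot errors, beside 19.8% of all features in either direction. Irf1, an interferon-induced activator of class I and TAP genes, gave 3070 (empty vector), 5045 (Mst1r vector) and 3157 (Slpi vector) at the probe in row 1. Its difference with the Mst1r vector was 0.95 ± 0.13, and its second probe in row 383 gave 1.04. Stat2, a subunit of the complex that answers type I interferon, gave 1443, 2125 and 1460 (0.79 ± 0.12, row 77). The second Stat2 probe, in row 32, gave 64.5, 19.4 and 6.27, opposite in direction. Irf7 differed by 0.53 ± 0.13 and Irf9 by 0.35 ± 0.12, and the second probes of these genes gave 0.45 and 0.35. With the Slpi vector the median of the 14 was 0.01, and Creb1 was the farthest from 0 at -0.32 ± 0.14. Its 3 other probes gave -0.09, -0.73 and -0.93 with the Slpi vector, and its 4 probes ranged from -0.88 to 2.47 with the Mst1r vector. The probe at -0.93 and 2.47, in row 39, was at background with empty vector and the Slpi vector. Its errors were 0.84 and 0.62. Without it, the Creb1 probes still ranged from -0.88 ± 0.27 to 0.04 ± 0.14 with the Mst1r vector, so they disagreed. Rfx5, which recruits Nlrc5 to class I promoters, was at background on all arrays.

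Of the interferons and their receptors, 10 of 12 were well above background on all arrays. Ifnb1, a type I interferon, gave 144 (empty vector), 383 (Mst1r vector) and 122 (Slpi vector), and was 3.11-fold higher with the Mst1r vector (1.64 ± 0.22). It was the only one of the 10 at least 1.5-fold higher, beside 7.06% of all features. Ifna2 gave 31.6, 36.3 and 22.7, below the signal minimum. The receptor genes of interferon gamma lay below 0, with -0.37 ± 0.12 for Ifngr1 and -0.29 ± 0.12 for Ifngr2, and Ifng itself was at background on all arrays. The albumin gene Alb, a hepatocyte marker, gave 5083, 6449 and 4966 (0.57 ± 0.13) on the same arrays. The second Alb probe gave 0.44 ± 0.12 with the Mst1r vector. The transferrin gene Trf, also a hepatocyte marker, lay below 0 with the Mst1r vector at -0.21 ± 0.08 and, at its second probe, -0.36 ± 0.11. Afp, Krt8 and Krt18 lay between 0.00 and 0.03. Whether these genes bear on the values of Nlrc5 and Tap1 was not tested.

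**Figure D4:**
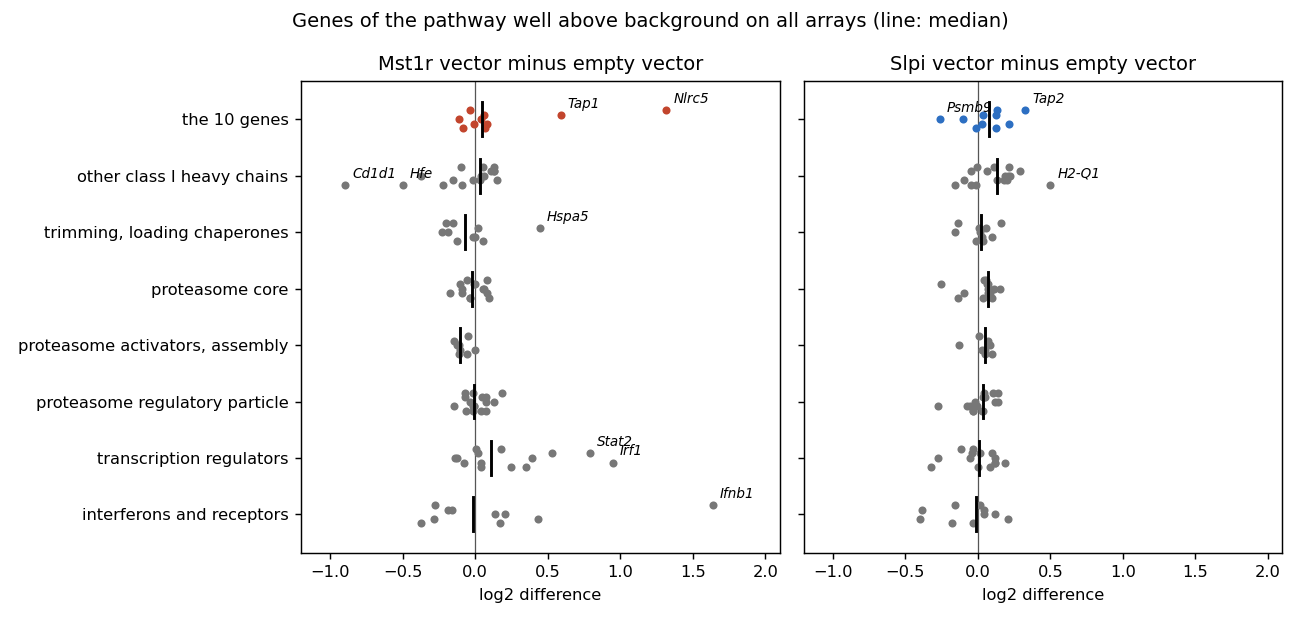
Log2 difference from empty vector (x axis) of the 10 genes (coloured) and of the genes of the 7 pathway lists that were well above background on all arrays (grey, 1 point a gene), with the median of each as a black line, for the Mst1r vector on the left and the Slpi vector on the right. With the Mst1r vector the median of the transcription regulators was 0.11, and those of the other groups drawn lay between -0.11 and 0.05.

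The search for genes of like pattern covered named genes well above background on all arrays, with their brightest probe in the lower rows. Those most like the median of the 10 genes over both vectors were Rps12, Dnajb4, Hnrnpl, Zfp266 and Rtel1. Their distances were 0.0009 to 0.0052 on the log2 scale over 3 arrays. As 1168 of the genes searched lay within 0.1 of the same pattern, this likeness is shared by many genes.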

How the data were processed

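Per the file headers, the authors made the deposited spot intensities with Feature Extraction 12.0.3.1 (array design build mm9). The processed signal is a linear intensity after subtraction of background and correction of spatial trends, not scaled between arrays. The deposited flags mark spots well above background, outlier spots and saturated spots. A deposited table of the series held the same intensities per probe. It differed by less than 0.01 (log2) for 99.9% of values.

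From these, log2 signals were averaged over the unflagged spots of each of 56605 probes, and the 75th percentile of the array was subtracted. Accessions were matched to RefSeq symbols (GRCm38.p6) for 32994 probes, and the probe with the highest mean signal stood for a gene. A gene was called at 1.5-fold or more with a signal over 50 on the brighter array. The spot error was the SD between spots of probes printed at least 10 times, control probes included, combined over both arrays of a difference. It rests on few values at some signal levels, each from 1 probe on 1 array. These were 9 at log2 signals of 8 to 10 (Psmb8) and 12 at 10 to 12 (brighter probes of Tap1, Tap2 and H2-K1). At 12 to 14 they were 19. The 3 arrays shared 1 slide and 1 scan. Group and position on that slide cannot be told apart, and the number of arrays limits the precision. The calculation was tested on simulated data. Analyses used Python 3.11.15, pandas 2.3.3, and R 4.3.3 with limma 3.58.1 for the normexp correction, which was run on the median signals of spot and background.

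The genes named were the 10 genes, Psmb5 to Psmb7, up to 3 detected genes of each list with the largest difference with the Mst1r vector and 1 with the Slpi vector, some known by role, and the 5 genes nearest in pattern. Some that the rule selected were left unnamed where their differences were within 2 spot errors. Several of these, such as Psma7 and Psmd6 with the Mst1r vector, lay beyond 1 spot error. Ifngr2 and Irf9 were named after their values were seen. A few list genes are not reported here, and the counts, sums and medians leave them out. The members and lists were chosen with earlier results of these data known.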

Additional observations from a re-analysis of the deposited data

How the results depend on the processing

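With 1 array per group, nothing here has a replicate check, and no paired analysis was possible because each group held 1 sample. The number of genes at least 1.5-fold higher with the Mst1r vector than with empty vector was 2 in the report. It was 1 after scaling to the spike-in controls, without scaling, after normexp correction and with the mean of all detected probes. It was also 1 with the second probe (3 genes) and at 2-fold. The share of all features called was 7.06% in the report. In the order of these alternatives it was 6%, 5.14%, 5.02%, 5.22%, 3.69% and 4.34%. Tap1 was between 0.36 and 0.63 (log2) and Nlrc5 between 0.55 and 1.35 under the alternatives other than the second probe. The gene lost was Tap1 with the spike-in scaling (0.48), without scaling (0.36), after normexp correction (0.55) and at 2-fold, and Nlrc5 with the mean of its probes (0.55), which holds its second probe, and with the second probe, which was under the signal minimum. The cause of the normexp change was not tested. Against the Slpi vector the count, 1 in the report, was 2 when scaled to the detected probes or to the spike-in controls. With the second probe it was 0. The share of all features was 7.13% in the report and 7.73%, 9.47% and 3.34% in these settings. The median of the 10 genes moved to -0.18 (Mst1r vector against empty vector) and -0.20 (Mst1r vector against Slpi vector) without scaling, to 0.24 (Slpi vector against empty vector) when scaled to the array median and to -0.16 when scaled to the spike-in controls. With the second probe it was 0.15 for the vectors against each other. All features moved with the scaling, by -0.23 and -0.15 without scaling, 0.17 with the array median and -0.24 with the spike-in controls. With the Slpi vector, Tap2 (0.09 to 0.49) and Psmb9 (-0.50 to -0.10) kept their sign under the alternatives other than the second probe, and each of the other 8 genes changed it under at least 1. The count with the Slpi vector against empty vector stayed at 0 under every alternative run, while the share of all features ranged from 0.797% to 6.13%. Of 300 recalculated differences of single genes, 53 moved by more than the spot error and none of the called ones changed sign. Many could not move, since changes of the signal minimum reuse the same values and the deposited table holds the same intensities. The second Nlrc5 probe, at -0.22 with the Mst1r vector against empty vector, was under the minimum and not among the 300. Between log2 signals of 6 and 8 the spot error is 0.19 per array, which limits Nlrc5 and Psmb9.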

Other observations

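Genes of class II presentation, which display peptides from outside the cell, were mostly dim in these hepatoma cells. At the brightest probe of each of 12 genes, H2-DMa, H2-DMb1 and H2-Eb1 were well above background on all arrays, 4 on some and 5 on none. Ciita, the class II counterpart of Nlrc5, gave 16.7 (empty vector), 17.2 (Mst1r vector) and 14.9 (Slpi vector) at its brighter probe, at background on all arrays. Its second probe, in row 63, gave 27, 6.1 and 10.6, of which the first was marked well above background. Cd74, the invariant chain, gave 19.5, 23.9 and 14, and was well above background on the Mst1r vector array only. H2-DMa, which edits class II peptides, gave 61.1, 82.5 and 68.9, and its difference with the Mst1r vector of 0.66 ± 0.62 was about the size of its spot error. H2-Eb1 gave 740, 589 and 669 (-0.10 ± 0.14).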
